A study of Caenorhabditis elegans with 2 samples.

Results

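The genes that encode chaperones and heat-shock proteins in Caenorhabditis elegans were examined for peaks of F57A8.1 chromatin immunoprecipitation followed by sequencing (ChIP-seq). They were chosen by name: every protein-coding gene whose name begins with hsp-, cct- or dnj-, which takes in hsp-90, also known as daf-21. This gave 59 of the 19973 protein-coding genes on the nuclear chromosomes. Of the 59, 6 belong to the HSP70 family, 2 to the HSP90 family, 8 to the cytosolic chaperonin, 1 to the mitochondrial chaperonin, 13 to the small heat-shock proteins and 29 to the J-domain proteins. Both samples came from whole worms of 1 strain that carries the unc-119 allele tm4063 and the transgene insertion wgls757. The insertion holds F57A8.1 with a C-terminal TY1, EGFP and 3xFLAG tag, together with a working unc-119(+) copy, and the chromatin was precipitated through GFP. The animals were young adults of both sexes at 65 hours, grown from L1 larvae that had been starved after bleaching, and the labels give no heat treatment. The 2 samples are biological replicates of that single group, so nothing here compares conditions, and in whole worms strong binding in few cells and weak binding in many cells cannot be told apart. What promoter drives the fusion is not given in the sources used here.

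Chaperones bind unfolded or partly folded proteins and help them reach or keep their native shape. HSP70 proteins do so in cycles of ATP hydrolysis that J-domain proteins start and HSP110 proteins reset, HSP90 acts later on a set of client proteins, chaperonins enclose a protein in a barrel, and small heat-shock proteins hold unfolded proteins without ATP. Many chaperone genes are transcribed in unstressed cells. A smaller set, which in the worm includes the hsp-16 genes and hsp-70, is nearly silent until heat activates the factor HSF-1. That factor binds repeats of the pentamer nGAAn. Here the 6 hsp-16 genes and hsp-70 are called heat-induced, 7 genes in all, and the remaining 52 are called constitutive. That second class includes 8 genes taken here to be expressed without stress and raised further by heat or by stress in an organelle: hsp-1, hsp-4, hsp-6, hsp-12.6, hsp-60, hsp-90, hsp-110 and dnj-13. The classes were set by hand, and these data hold no expression values to check them.

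The strongest and best placed peaks in the set lay at constitutive genes, which make up 52 of the 59. A summit, the base of highest enrichment in a peak, lay within 500 bp of the 5′ end and among the 3000 highest of the pooled list for 12 of the 59 genes, 20.3%, against 4.32% of all protein-coding genes. Counting only summits to which no other protein-coding gene had a closer 5′ end, 9 genes remained (15.3%, against 3.89% of all genes). None of the 12 was in the heat-induced class, which has only 7 genes with 3 distinct nearest summits. Of the 12, 5 (dnj-13, hsp-1, hsp-6, hsp-60 and hsp-110) were among the 8 stress-raised constitutive genes. The 12 were dnj-13, dnj-9, dnj-12, dnj-19, hsp-1, hsp-3, hsp-6, hsp-110, hsp-43, hsp-60, cct-1 and cct-7. In replicate 1 alone 7 of the 59 genes had such a summit (11.9%, against 4.04% of all genes), and in replicate 2 alone 13 did (22%, against 4.25%). Only 5 had one in both replicates (8.47%, against 1.14%): dnj-13, hsp-1, hsp-110, hsp-3 and hsp-43.

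Summits of any rank said less about the set. The pooled list, like each replicate's list, holds 30000 peaks, and 44 of the 59 genes had a pooled summit within 2000 bp of the 5′ end (74.6%, against 69.6% of all protein-coding genes). Replicate 1 gave 44 genes (74.6%, against 71.8%) and replicate 2 gave 47 (79.7%, against 70.2%). Both replicates had a summit in that window for 42 genes (71.2%, against 57.2%), and 9 genes had none in any list (15.3%, against 13.8%). Within 500 bp, 28 genes had a pooled summit (47.5%, against 31.8%). The nearest pooled summits of the 44 genes had a median rank of 8094, where 1 is the highest signal, and a median distance of 352.5 bp, against a rank of 14987 and 569 bp over the 13892 genes of the genome with one. The median rank of the nearest summit was 8437 in replicate 1 and 12843 in replicate 2. Signal is the authors' own measure of enrichment at a peak. It ran from 25.8 to 571 in the pooled list with a median of 34.9, and the highest signals of replicates 1 and 2 were 256 and 319. The lists were scaled apart, so that signals are comparable within a list only. Read depth is unknown.

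**Figure D1:**
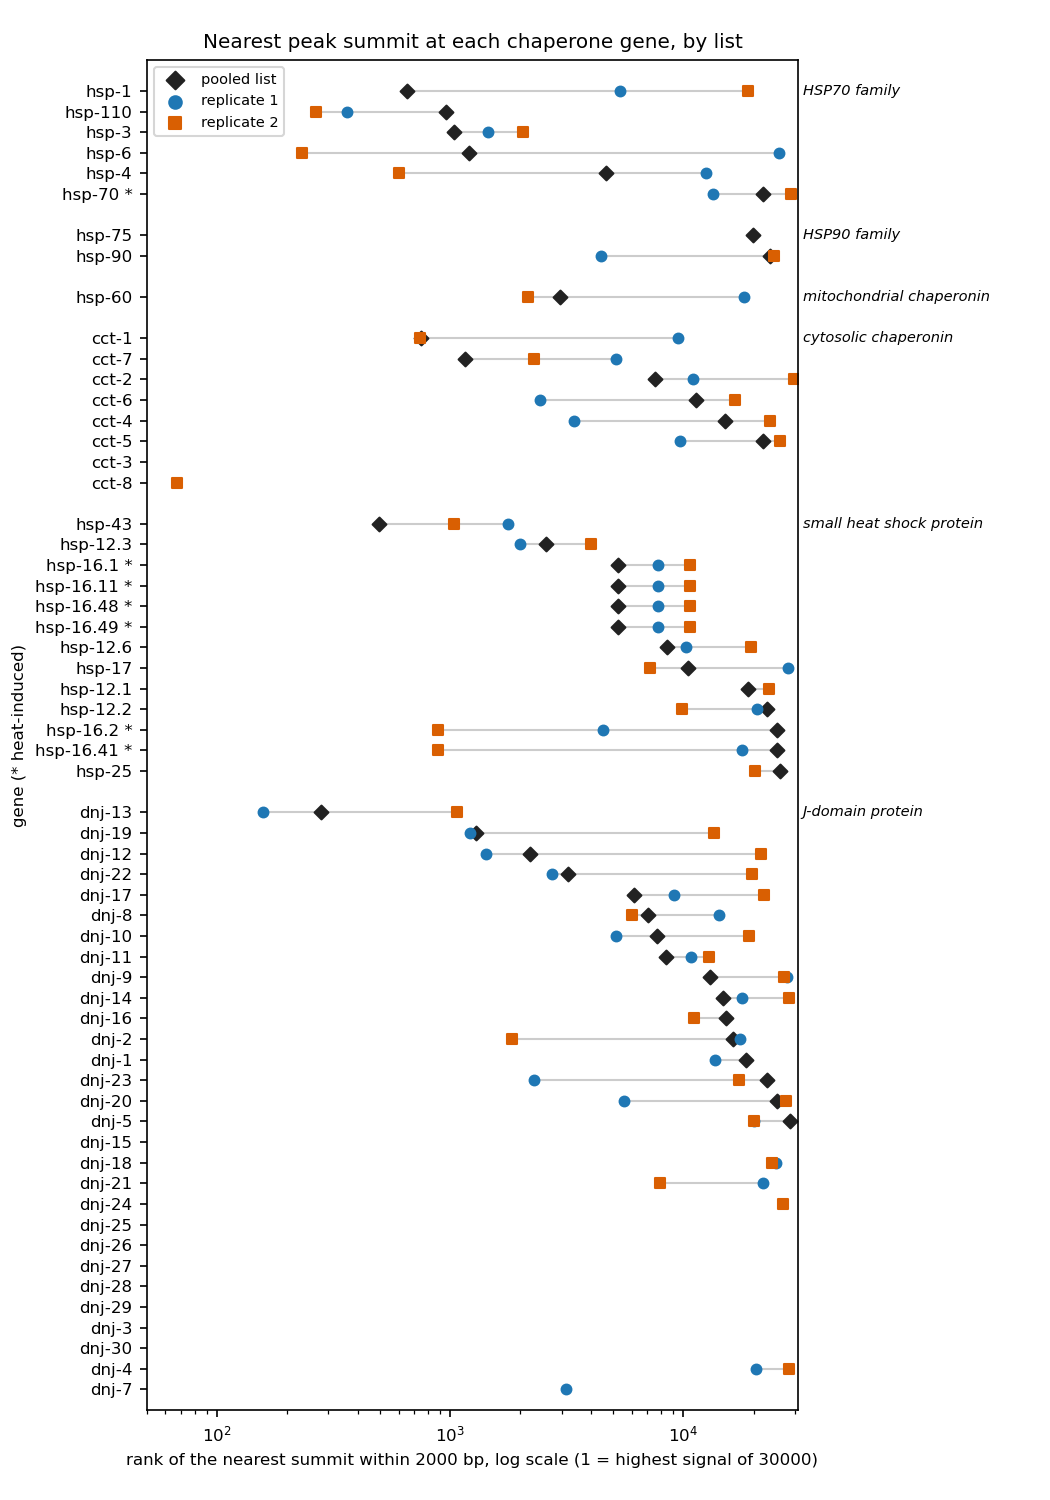
Rank of the nearest summit within 2000 bp of each gene's 5′ end (x axis, log scale, 1 is the highest signal of 30000), with 1 line of the y axis for each of the 59 genes, grouped by family; diamonds are the pooled list, circles replicate 1, squares replicate 2, and an asterisk marks the 7 heat-induced genes. The 3 marks of a gene can stand for different sites, and genes with no mark have no summit in the window.

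The members shared few other features of position. Their 44 nearest pooled summits were 40 distinct sites, since the 6 hsp-16 genes shared 2 of them. The nearest summit lay upstream of the 5′ end in 23 of 59 genes (39%, against 32.2%). Counting only summits to which no other protein-coding gene had a closer 5′ end, it lay upstream in 13 (22%, against 22.4%). Of the 44, 18 lay between genes (40.9%, against 30.6% over all genes with a summit), a count that takes the 2 hsp-16 sites 6 times. A further 17 lay in a coding exon (38.6%, against 40.5%), 5 in an intron (11.4%, against 22.6%) and 4 in a 3′ untranslated region (9.09%, against 2.69%). Summits of both replicates fell within 100 bp of the nearest pooled summit for 18 of 59 genes (30.5%, against 3213 of all 19973). That count takes the site shared by hsp-16.1, hsp-16.11, hsp-16.48 and hsp-16.49 4 times. The nearest summit inside the limit that lay farthest out was that of dnj-1 at 1780 bp, and the first beyond it was that of dnj-18 at 2038 bp.

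The authors' thresholded list keeps 295 peaks that passed a test of reproducibility between lists, all with a pooled signal of at least 85.7. It placed a peak within 2000 bp of 5 members, dnj-13, dnj-9, hsp-60, hsp-1 and hsp-12.3 (8.47%, against 1.59% of all genes). For 3 of the 5, dnj-13, dnj-9 and hsp-1, no other protein-coding gene had its 5′ end closer to the summit (5.08% of the members, against 0.981%). Windows of 50 bp either side of a summit are printed below on the strand of the gene, from the RefSeq genome of the WBcel235 assembly, for the 3 thresholded peaks upstream of a member and for hsp-3, whose summit lay closest to its 5′ end among the peaks described below that were high in both replicates and upstream. The hsp-3 window stops at the annotated 5′ end. Capitals mark the motifs that were searched, GAANNTTC and TTCNNGAA, each a pair of adjoining heat-shock pentamers, and ACGCAG and AGAGCG, which earlier results of these data had shown at many F57A8.1 peaks, on either strand.
dnj-13, chrII:11545471-11545571, plus strand: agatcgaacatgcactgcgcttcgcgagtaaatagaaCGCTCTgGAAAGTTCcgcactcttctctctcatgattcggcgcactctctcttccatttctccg
dnj-9, chrII:4851758-4851858, plus strand: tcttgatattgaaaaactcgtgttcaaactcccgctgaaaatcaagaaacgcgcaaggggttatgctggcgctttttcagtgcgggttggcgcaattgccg
hsp-60, chrIII:1619103-1619203, plus strand: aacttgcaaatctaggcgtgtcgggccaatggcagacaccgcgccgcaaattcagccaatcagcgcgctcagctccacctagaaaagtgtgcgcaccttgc
hsp-3, chrX:6092125-6092218, minus strand: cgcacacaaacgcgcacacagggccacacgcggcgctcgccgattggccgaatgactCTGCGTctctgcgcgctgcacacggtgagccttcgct
The dnj-13 window holds AGAGCG, read here on the opposite strand, and GAANNTTC next to it. The hsp-3 window holds ACGCAG on the opposite strand, 7 bp from the summit. The dnj-9 and hsp-60 windows hold no match to any of the motifs.

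Of the 6 HSP70 family genes, 4 had a summit among the 3000 highest within 500 bp in the pooled list (66.7%, against 4.32% of all protein-coding genes). In both replicates 3 had one (50%, against 1.14%). Their co-chaperone genes dnj-13 and dnj-12 are described with them. dnj-13 encodes a class B J-domain protein that works with HSP-1 and HSP-110 to take apart protein aggregates. The dnj-13 summit lay 180 bp upstream of its 5′ end, at rank 280 and signal 87.0 in the pooled list. Replicate 1 had its summit there at rank 157 and signal 50.3, and replicate 2 at rank 1066 and signal 41.7. The 3 summits fell between 145 and 180 bp upstream. dnj-13 is nested in dhgd-1, on the other strand, so that by annotation the site is also an intron of dhgd-1. dnj-12, the class A partner, had its nearest pooled summit 418 bp inside the transcript at rank 2207, and the nearest summits of the replicates ranked 1427 and 21566.

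hsp-1 encodes the constitutive cytosolic HSP70. Its highest pooled peak within 2000 bp lay inside the gene, and other summits lay upstream. In replicate 2 the highest summit of that window was 1639 bp upstream, at rank 366 and signal 52.0. The nearest pooled summit was 455 bp downstream of the 5′ end in a coding exon, at rank 655 and signal 71.1, and within 100 bp of it replicate 1 had a summit at rank 1333 and replicate 2 at rank 678. The thresholded peak of hsp-1 was farther in, 1936 bp downstream in an intron, at rank 265 and signal 88.2. The replicates differed at that site: replicate 1 had a summit within 100 bp at rank 110 and signal 54.7, and replicate 2 had none. The closest summit to the hsp-1 5′ end itself, 22 bp upstream, was in replicate 1 only, at rank 5358.

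hsp-110, which encodes the nucleotide exchange factor of HSP70, had summits close to its 5′ end in every list. The pooled summit was 31 bp downstream at rank 957 and signal 66.3. Replicate 2 placed its summit 7 bp upstream at rank 266 and signal 56.3, and replicate 1 placed its own 158 bp downstream at rank 359 and signal 41.7. Both replicates thus ranked the hsp-110 site higher than the pooled list did, at positions farther apart than 100 bp.

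The endoplasmic reticulum has a pair of HSP70 (BiP) genes, hsp-3 and hsp-4, of which hsp-4 is the one known for strong induction by unfolded protein in that compartment. The hsp-3 summit lay 44 bp upstream of the 5′ end at rank 1032 and signal 65.4. It was matched at rank 1455 and signal 32.6 in replicate 1, 41 bp upstream, and at rank 2046 and signal 36.5 in replicate 2, 77 bp upstream. A second pooled summit 964 bp inside hsp-3 ranked 761, with rank 468 in replicate 1 and 23092 in replicate 2. At hsp-4 the nearest pooled summit was in a coding exon, 406 bp downstream, at rank 4641. The replicates were far apart there, at rank 602 in replicate 2 and rank 12532, 526 bp downstream, in replicate 1. Of the BiP pair, hsp-3 was the gene with a high-ranked summit in both replicates.

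The mitochondrial chaperones showed the same kind of difference between replicates near the 5′ end. hsp-6 encodes mitochondrial HSP70 and hsp-60 the mitochondrial chaperonin, and both are standard reporters of the mitochondrial unfolded protein response. For hsp-6 the pooled summit was 106 bp downstream at rank 1207 and signal 63.3. Replicate 2 had it at rank 230 and signal 57.9, whereas the nearest summit of replicate 1, 256 bp downstream, ranked 25654 with a signal of 15.5. hsp-60 had the highest pooled peak within 2000 bp of any member, 589 bp upstream, at rank 56 and signal 137.5. It ranked 162 in replicate 1 and 79 in replicate 2, with signals of 49.9 and 77.7. That summit is nearer to the 5′ end of Y22D7AL.10, at 224 bp, than to that of hsp-60. The summit nearest to hsp-60, 359 bp downstream in a coding exon, ranked 2958 in the pooled list, 18211 in replicate 1 and 2155 in replicate 2.

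hsp-90 encodes the cytosolic HSP90, and what was found there depended on the transcript. The 5′ end of the gene is that of its longest transcript, and the nearest pooled summit, 296 bp downstream in an exon of the overlapping gene C47E8.4, ranked 23580. A second hsp-90 transcript starts 1242 bp farther downstream. Around that start lay pooled summits 243 bp downstream at rank 1007 and 418 bp upstream at rank 1182, and 930 bp downstream lay a thresholded peak at rank 86 and signal 123. Within the body of hsp-90 that peak ranked 26 in replicate 1, with signal 81.4 at 898 bp, and the nearest in replicate 2 ranked 726, with signal 45.2 at 1023 bp. hsp-90 therefore had no thresholded peak under the limit of 2000 bp from the gene's 5′ end, but had one inside the gene. hsp-1 and hsp-90 were the 2 members with a thresholded summit within the gene's span (3.39%, against 0.686% of all protein-coding genes). hsp-75, which encodes the mitochondrial HSP90, had a single weak summit, 161 bp upstream at rank 19807 in the pooled list and in neither replicate.

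**Figure D2:**
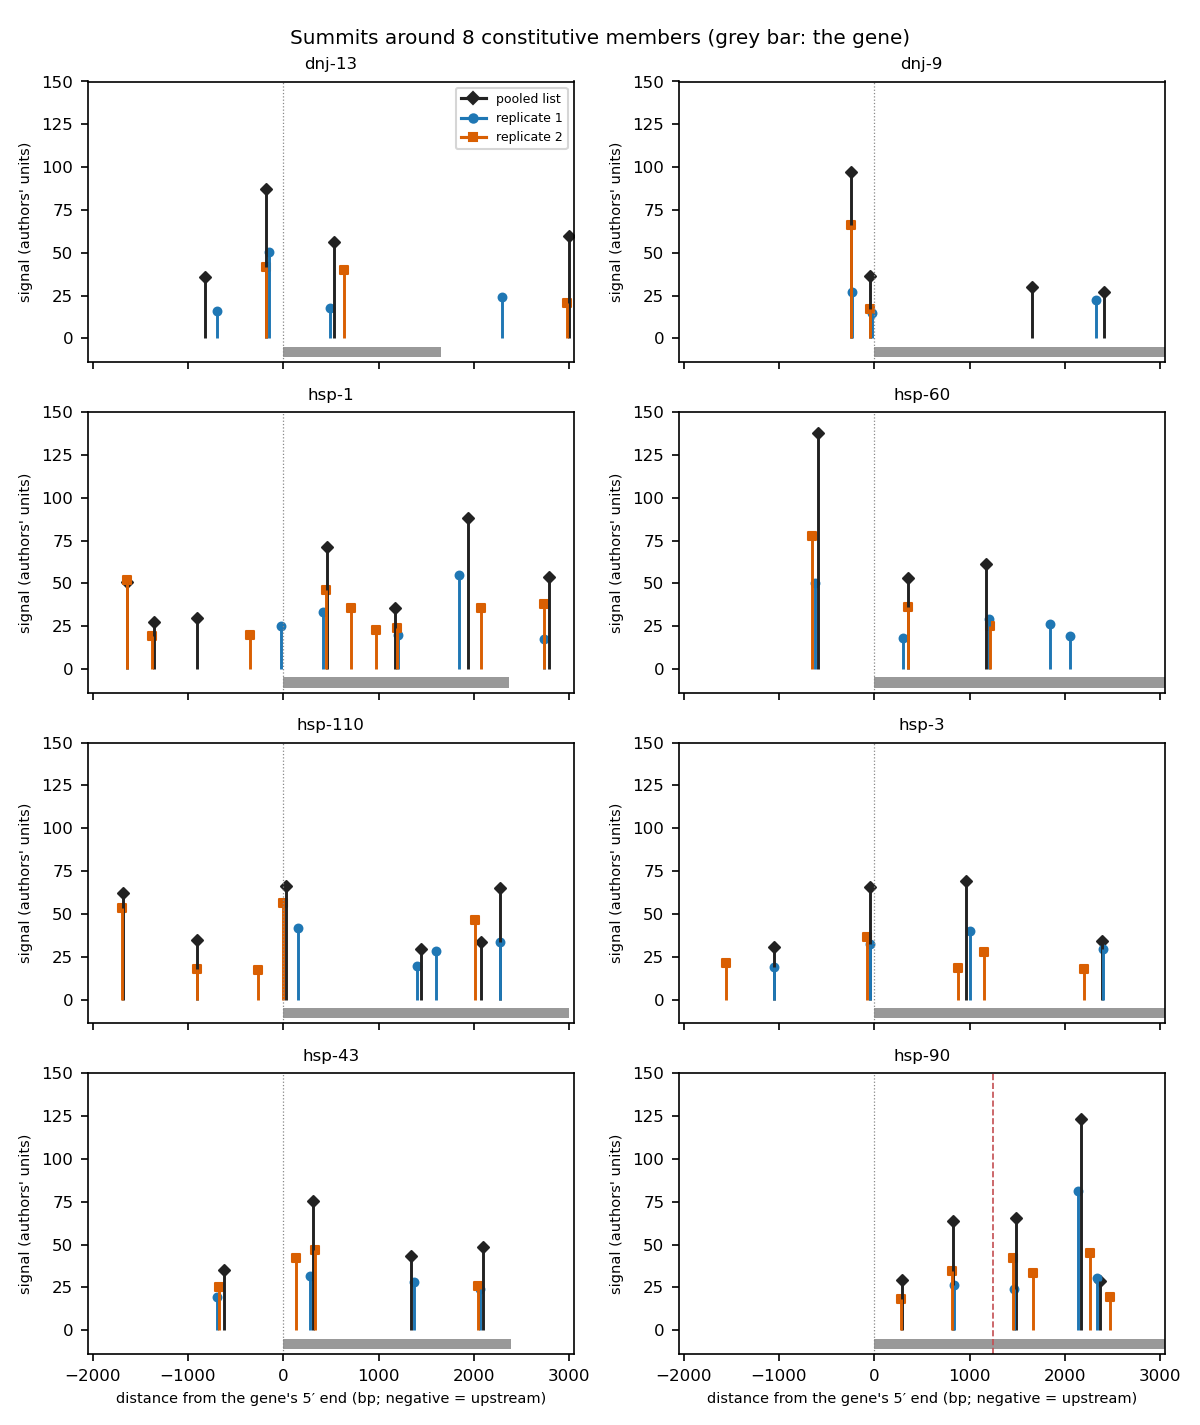
Signal of each summit (y axis, the authors' units) by its distance from the gene's 5′ end (x axis, bp, negative is upstream) at 8 constitutive genes, with diamonds for the pooled list, circles for replicate 1 and squares for replicate 2; grey bars are the genes and the dashed line in the hsp-90 panel is the 5′ end of its shorter transcript. The highest marks are upstream at hsp-60, dnj-9 and dnj-13 and inside the gene at hsp-1 and hsp-90.

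Among the J-domain genes apart from dnj-13 and dnj-12, dnj-9 had the highest peak. Its thresholded summit lay 248 bp upstream at rank 191 and signal 97.0. Replicate 2 had it at rank 131 and signal 65.9 and replicate 1 at rank 3721 and signal 27.1. A weaker dnj-9 summit 47 bp upstream, at rank 13021, was the nearest. dnj-19, a class A protein, had a summit 365 bp upstream at rank 1287, which lies 31 bp from the 5′ end of nhr-47. Its nearest summits ranked 1216 in replicate 1 and 13571 in replicate 2. dnj-2 had a summit 250 bp upstream at rank 1833 in replicate 2, where its nearest pooled summit ranked 16375. The nearest pooled summits of dnj-5, dnj-8, dnj-10, dnj-11, dnj-14, dnj-17, dnj-20, dnj-22 and dnj-23 ranked between 3201 and 28754. Over the whole family 16 of 29 genes had a pooled summit within 2000 bp (55.2%, against 69.6% of all protein-coding genes), with a median rank of 10738. Of the 29, 8 had none in any list (27.6%, against 13.8%): dnj-3, dnj-15, dnj-25, dnj-26, dnj-27, dnj-28, dnj-29 and dnj-30. Outside the family, cct-3 was the only member with none. The 8 include dnj-25, the worm auxilin that uncoats clathrin vesicles, and dnj-27, a disulfide reductase of the endoplasmic reticulum. dnj-18, dnj-21 and dnj-4 had summits in both replicates but not in the pooled list, dnj-7 in replicate 1 only and dnj-24 in replicate 2 only. dnj-1 had them in the pooled list and replicate 1, and dnj-16 in the pooled list and replicate 2.

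The 8 cct genes encode the subunits of 1 complex, which folds actin and tubulin, and their products are needed in equal amounts. Their peaks were unequal. cct-1 had a summit 278 bp upstream at rank 750 and signal 69.4, at rank 738 in replicate 2 and rank 9443 in replicate 1. cct-7 had a summit 319 bp upstream at rank 1153 and signal 64.0, at rank 2283 in replicate 2 and rank 5113 in replicate 1. Both sites are nearer to another gene's 5′ end, 142 bp from that of mig-5 and 120 bp from that of T10B5.4.

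The other cct genes had no summit among the 3000 highest of the pooled list within 500 bp. At cct-2 the nearest summit, 65 bp upstream, ranked 7514 in the pooled list, 11004 in replicate 1 and 29878 in replicate 2. A stronger cct-2 site lay 1585 bp inside the gene at rank 503, with rank 181 in replicate 1 and 7283 in replicate 2. At cct-4, cct-5 and cct-6 the nearest pooled summits ranked 15113, 21922 and 11348. Their nearest summits ranked 3395, 9668 and 2427 in replicate 1, and 23434, 25846 and 16637 in replicate 2. Some of these summits lay in neighbouring genes. For cct-5 the pooled and replicate 2 summits lay in F25F2.1, 1013 and 961 bp upstream. The replicate 1 summit of cct-6 lay in alh-9, 1381 bp upstream. The replicate 2 summit of cct-4 lay in nst-1, 491 bp upstream. cct-3 had no summit in any list. For cct-8 the lists were at odds: replicate 2 had a summit 427 bp upstream at rank 67 and signal 80.7, replicate 1 had none within 2000 bp, and the nearest summit of the pooled list was 13596 bp away. No cct gene had a summit among the 3000 highest of replicate 1 within 500 bp, where 4.04% of all protein-coding genes did. In replicate 2, 3 of the 8 had one (37.5%, against 4.25%), and in the pooled list 2 did (25%, against 4.32%).

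The small heat-shock protein genes all had a pooled summit within 2000 bp, 13 of 13 against 69.6% of all protein-coding genes, at a median rank of 8518. These were 9 distinct sites, since the hsp-16 genes share theirs, and 11 of the 13 genes had a summit in replicate 1. hsp-43, a constitutive member that carries the crystallin domain, had the highest nearest summit. It lay 308 bp downstream in an intron, at rank 495 and signal 75.7 in the pooled list, and at rank 1762 and signal 31.5 in replicate 1. Replicate 2 had a summit within 100 bp of it at rank 613 and signal 46.7. hsp-12.3 had the family's thresholded peak, 910 bp downstream of its 5′ end and beyond the end of the gene, at rank 255 and signal 88.8. This was at rank 214 in replicate 2 and had no summit within 100 bp in replicate 1. The site lies within 250 bp of the snRNA gene F38E11.11, and F38E11.9 has the nearest protein-coding 5′ end. The summit nearest to hsp-12.3, 697 bp downstream, ranked 2575 in the pooled list, 1996 in replicate 1 and 4032 in replicate 2. That pooled summit, in the 3′ untranslated region of hsp-12.3, also lies within 250 bp of F38E11.11. The nearest pooled summits of hsp-12.1, hsp-12.2, hsp-12.6, hsp-17 and hsp-25 ranked between 8518 and 25961, and hsp-12.1 and hsp-25 had no summit in replicate 1.

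**Figure D3:**
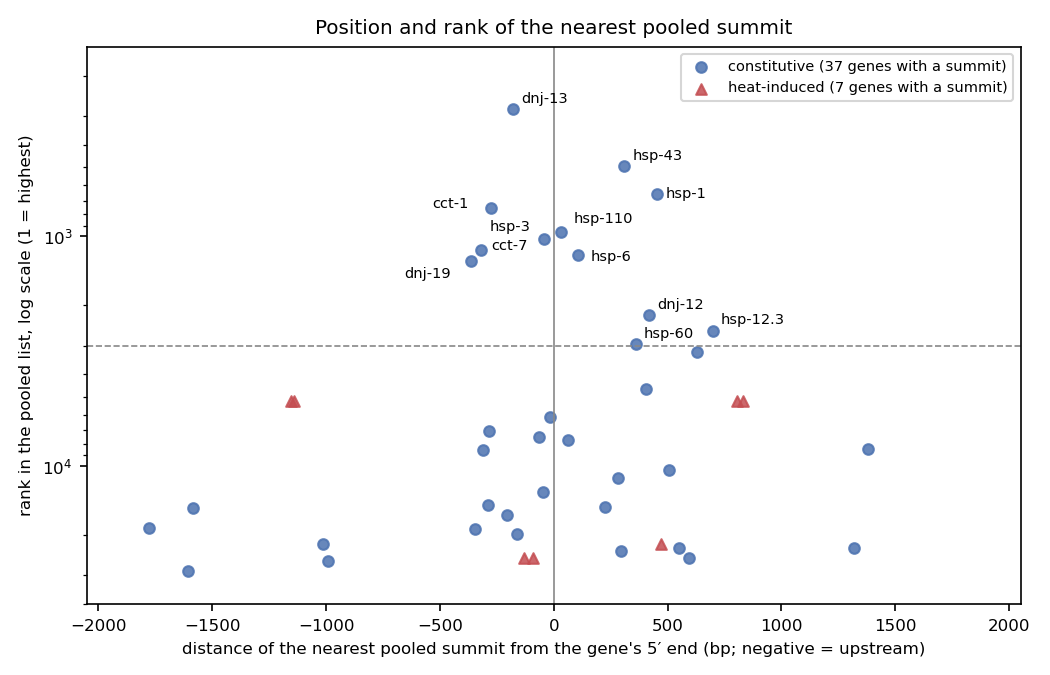
Rank of the nearest pooled summit (y axis, log scale, 1 is highest, dashed line at rank 3000) against its distance from the gene's 5′ end (x axis, bp, negative is upstream) for the 44 genes with one, circles for 37 constitutive and triangles for 7 heat-induced genes; overlapping triangles share a summit. The triangles all lie below the dashed line, at rank 5235 or weaker.

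The heat-induced genes all had a pooled summit within 2000 bp, 7 of 7, against 37 of 52 constitutive genes (71.2%) and 69.6% of all protein-coding genes. None of the 7 had a thresholded peak, where 5 of the 52 constitutive genes (9.62%) and 1.59% of all genes did. None of them had a summit among the 3000 highest within 500 bp in the pooled list or in either replicate. In the pooled list 12 of 52 constitutive genes (23.1%) had one, against 4.32% of all genes. With shares that low over all genes, 0 of 7 does not set the heat-induced genes apart from the genome. This contrast depends on where the stress-raised constitutive genes are counted. With those 8 moved to the heat-induced class, a summit among the 3000 highest within 500 bp was found at 5 of 15 genes (33.3%) against 7 of the remaining 44 (15.9%), and a thresholded peak at 3 of 15 (20%) against 2 of 44 (4.55%). The 7 genes of the narrow class stand for only 3 distinct nearest summits, and with so few the difference from the constitutive genes has no test here. Their median rank, 5235, is that of the single summit shared by 4 of them. The class holds only genes chosen by name. F44E5.4 and F44E5.5, also heat-inducible, lie outside it and share a thresholded peak, described below.

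hsp-16.1 and hsp-16.48 are transcribed away from each other, and so are their inverted copies hsp-16.11 and hsp-16.49. The nearest summit of all 4 was the same one, chrV position 9088935, at rank 5235 and signal 46.5. Replicate 1 had it at rank 7792 and signal 23.03 and replicate 2 at rank 10634 and signal 24.6. It lay 1153 bp upstream of hsp-16.1, 1142 bp upstream of hsp-16.11, 804 bp downstream of hsp-16.48 and 831 bp downstream of hsp-16.49. This places it in the 662-bp spacer between the copies and outside the intervals from which the genes are transcribed. The copies, chrV:9087293-9088617 and chrV:9089280-9090604, were identical over 1325 bp, which is longer than the sheared fragments of 200 to 800 bp. No list had a summit inside either copy, and each had 1 in the spacer. How reads that match more than 1 place were treated is not given in the sources used here, and the part of the repeat in this result was not tested.

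hsp-16.2 and hsp-16.41 form a divergent pair with 220 bp between their 5′ ends, and a summit lay in that interval. It was weak, at rank 25265 and signal 28.2, 131 bp upstream of hsp-16.2 and 90 bp upstream of hsp-16.41, and neither replicate had a summit within 100 bp of it. Replicate 1 had summits on both sides, at rank 4535 inside hsp-16.2 (77 bp downstream) and at rank 17821 inside hsp-16.41 (169 bp downstream). The nearest summit of replicate 2 was outside both genes, 996 bp downstream of the hsp-16.41 5′ end, at rank 887 and signal 43.4, where the pooled list had rank 2959. hsp-70, a heat-inducible cytosolic HSP70, had its nearest pooled summit 471 bp downstream in a coding exon at rank 21873. Those of the replicates ranked 13409 (511 bp downstream) and 28803 (52 bp upstream).

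F44E5.4 and F44E5.5, another divergent pair of heat-inducible HSP70 genes, were not in the set by name but were examined among 36 other genes of the pathway. They differed from the hsp-16 pairs in having a thresholded peak between them, at rank 274 and signal 87.3, 197 bp upstream of F44E5.4 and 154 bp upstream of F44E5.5. Both replicates had their summit at the same base, replicate 1 at rank 1579 and signal 32.2 and replicate 2 at rank 368 and signal 52.0. The window around that summit and the whole interval between hsp-16.2 and hsp-16.41 are set side by side because both hold the heat-shock repeat and ACGCAG, with the same motifs in capitals.
F44E5.5, chrII:11759458-11759558, plus strand: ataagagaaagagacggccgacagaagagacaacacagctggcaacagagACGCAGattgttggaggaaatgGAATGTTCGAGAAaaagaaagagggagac
hsp-16.2 to hsp-16.41, chrV:1804958-1805177, plus strand: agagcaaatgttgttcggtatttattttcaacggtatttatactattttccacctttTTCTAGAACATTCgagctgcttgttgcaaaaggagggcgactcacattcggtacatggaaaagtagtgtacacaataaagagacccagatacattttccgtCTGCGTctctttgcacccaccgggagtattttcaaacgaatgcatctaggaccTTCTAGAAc
In the F44E5.5 window the ACGCAG match starts at the summit base and the heat-shock repeat, 3 pentamers in a row, starts 22 bp downstream. In the hsp-16.2 interval the ACGCAG match starts 33 bp upstream of the weak summit, read in the direction of hsp-16.2.

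**Figure D4:**
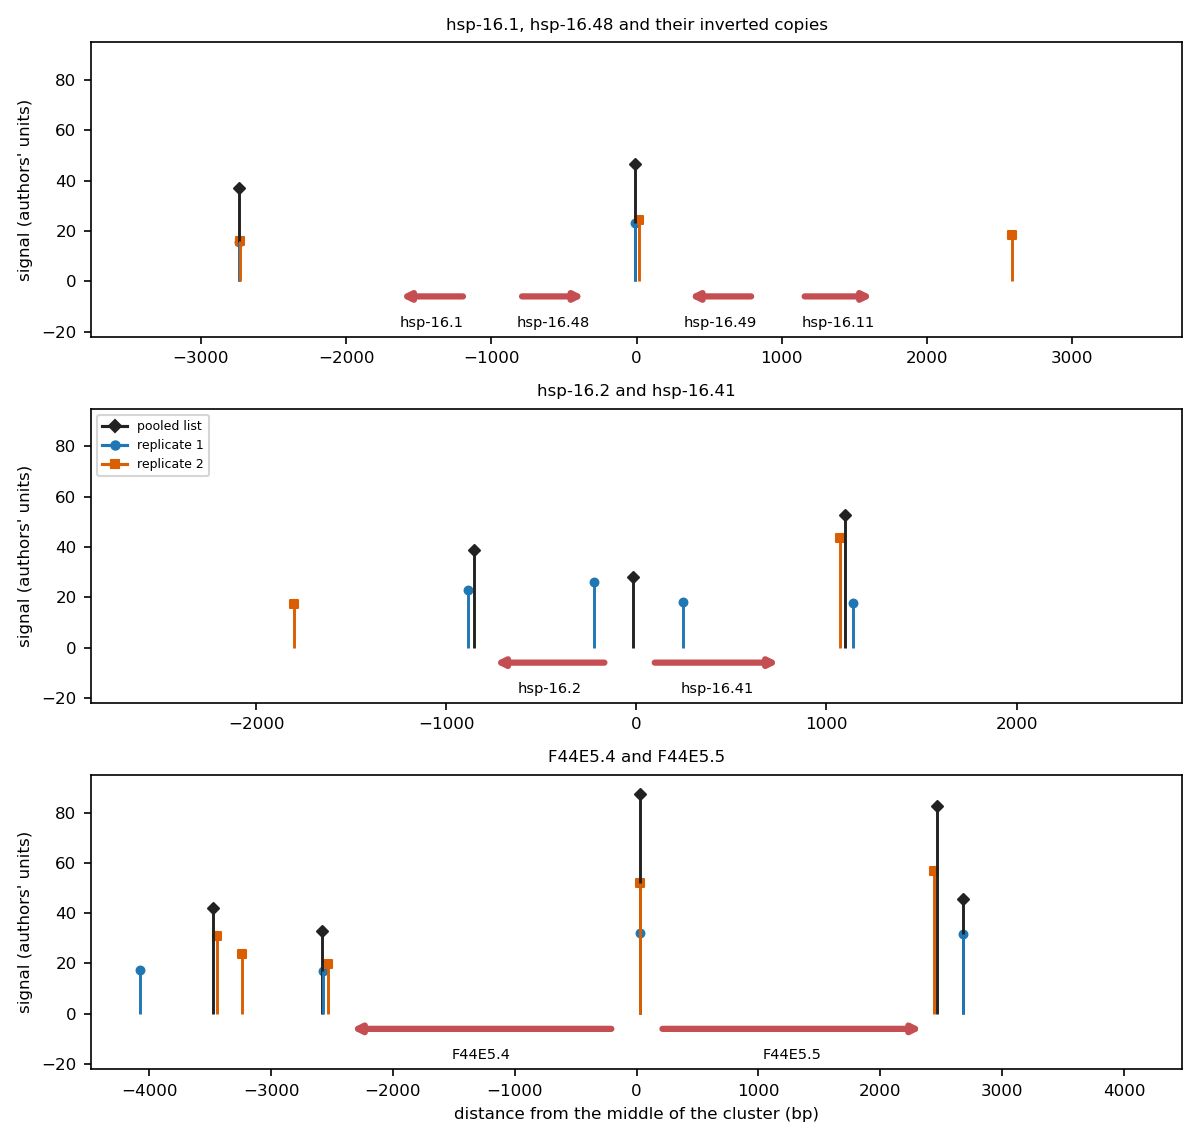
Signal of each summit (y axis, the authors' units) by its distance from the middle of the cluster (x axis, bp) at the hsp-16.1 and hsp-16.48 repeat, the hsp-16.2 and hsp-16.41 pair and the F44E5.4 and F44E5.5 pair; arrows are the genes in their direction of transcription, and marks are as in the plot of constitutive genes. The pooled summit between the divergent genes reaches 87.3 at F44E5.4 and F44E5.5 and 28.2 at hsp-16.2 and hsp-16.41, and the repeat has its summit of 46.5 between the copies.

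The heat-shock repeat was counted upstream of the genes and around the summits. A pair of pentamers in either form occurred in the 250 bp upstream of the 5′ end in 28 of 59 members (47.5%) and in 27.1% of all protein-coding genes. All 7 heat-induced genes had one and 21 of 52 constitutive genes did (40.4%). A row of 3 pentamers was present upstream of all 7 heat-induced genes, 4 of 52 constitutive genes (7.69%) and 1.63% of all genes. The 4 were dnj-12, hsp-1, hsp-110 and hsp-90. All of them but hsp-90 were among the 12 genes with a pooled summit among the 3000 highest within 500 bp. Around the 40 nearest pooled summits of the members, within 50 bp, a pair of pentamers occurred at 7 (17.5%), against 10.6% of all pooled summits. A row of 3 occurred at none of the 40, against 0.403% of all pooled summits, a share too low for none to set the members apart. Among all 98 pooled summits within 2000 bp of members, 1 had a row of 3 (1.02%). ACGCAG, present at 13.9% of thresholded summits and 3.1% of pooled summits, lay upstream of 6 of 7 heat-induced genes, 2 of 52 constitutive genes and 7.23% of all genes. AGAGCG, at 16.9% of thresholded and 2.81% of pooled summits, lay upstream of 0 of 7 heat-induced and 9 of 52 constitutive genes (17.3%), against 5.56% of all genes. The hsp-16 genes come in divergent pairs and identical copies, so that these 7 genes hold fewer independent upstream regions than genes. Within 50 bp of the members' 40 nearest summits, ACGCAG and AGAGCG each occurred at 2 (5%), so that the windows printed above are not typical of the set. A match is a description of the sequence and not of a bound site.

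The other 36 genes of the pathway were regulators, co-chaperones, prefoldin subunits and chaperones with other names. Of these, 32 had a pooled summit within 2000 bp (88.9%, against 69.6% of all protein-coding genes), 4 had a thresholded peak (11.1%, against 1.59%), and 9 had a summit among the 3000 highest within 500 bp (25%, against 4.32%). hsf-1 itself had no summit within 2000 bp in any list, and neither did unc-45, the myosin chaperone, ddl-2 or pfd-2. enpl-1, which encodes the HSP90 of the endoplasmic reticulum, had a thresholded peak 42 bp downstream of its 5′ end at rank 176 and signal 100.1. That site ranked 113 in replicate 1 and 1828 in replicate 2. hip-1, a co-chaperone of HSP70, had one 597 bp downstream in a coding exon at rank 142, and the F44E5.4 and F44E5.5 pair shared the remaining one. The summits nearest to the hip-1 5′ end ranked 10357 in replicate 1, 415 bp upstream, and 955 in replicate 2, 479 bp downstream. atf-6, a regulator of the response to unfolded protein in the endoplasmic reticulum, had a summit 309 bp upstream at rank 402, at rank 218 in replicate 1 and 2129 in replicate 2.

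Genes of 2 other large protein machines, chosen after the values of the chaperone genes were known, give the scale of these shares. A summit among the 3000 highest within 500 bp occurred at 37 of 78 ribosomal protein genes (47.4%) and 10 of 33 proteasome genes (30.3%), against 12 of 59 chaperone and heat-shock genes (20.3%). In both replicates it occurred at 24.4% of the ribosomal protein genes, 9.09% of the proteasome genes and 8.47% of the chaperone and heat-shock genes. The shares at the chaperone genes thus lay between those of all protein-coding genes and those of the ribosomal protein genes, and whether they differ from either was not tested.

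**Figure D5:**
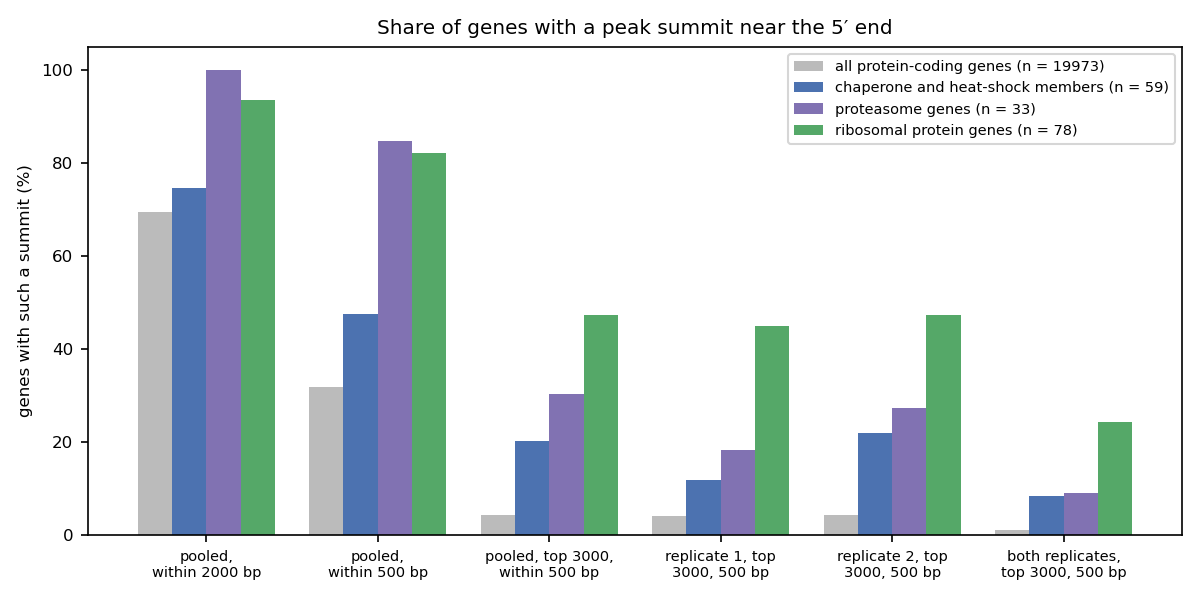
Share of genes with a summit near the 5′ end (y axis, %) under 6 definitions (x axis), with bars for all 19973 protein-coding genes, the 59 chaperone and heat-shock genes, 33 proteasome genes and 78 ribosomal protein genes; bars have no error because each is a count over a fixed set of genes. For summits among the 3000 highest the chaperone bars lie between those of all genes and those of the ribosomal protein genes.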

How the data were processed

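The deposited files are peak lists in ce11 coordinates. Per the deposited file descriptions, the authors called peaks on each replicate and on both pooled, against the same 1 control alignment, and derived the thresholded list from the replicate and pooled lists. No source used here names the aligner, peak caller or scaling, and read depth is unknown. Each peak has a signal score and a −log10 q, both deposited by the authors; the score ranked peaks within a list, and q was not used to choose any.

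Genes came from Ensembl release 115 (WBcel235, the sequence of ce11), with symbols of the copied hsp-16 genes from RefSeq. Python 3.11.15 found the summits nearest to each gene's 5′ end within 2000 bp and counted replicate summits within 100 bp of a pooled one; the code was tested on simulated data. Coordinates are 1-based. Members, gene lists, motifs and the limits of 3000 peaks and 500 bp were chosen with earlier results of these data known. Genes with thresholded peaks, the 12 highest nearest summits, all heat-induced and cct genes and hsp-90 are given in full, and of the other pathway genes hsf-1, those with a thresholded peak and those with the 3 highest nearest summits (counting the shared one once). With 1 group no test was possible, and values have no error beyond the 2 replicates. The alternatives changed the distance limit, the choice of summit or 5′ end, the number of peaks, the classes, and the list.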

Additional observations from a re-analysis of the deposited data

How the results depend on the processing

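No paired analysis was possible because the design has 1 group of 2 replicates. Across the results and settings tried, 64 values stayed close to those reported (counts within 1.5 times, the median rank within the SD between the replicates' medians, 3116) and 20 moved. With a limit of 500 bp in place of 2000 bp, members with a pooled summit fell from 44 to 28, with a thresholded peak from 5 to 2, with summits in both replicates from 42 to 19, and heat-induced genes with a pooled summit from 7 to 3. At 500 bp the first 3 of these were 47.5%, 3.39% and 32.2% of the members, against 31.8%, 0.536% and 15.6% of all genes. The thresholded count was 8 at 5000 bp (13.6%, against 3.43% of all genes) and 3 when the member had to own the nearest 5′ end (5.08%, against 0.981%). It was 1 in the upper part of the list by signal, split at its median, and 4 to 6 with the highest peaks of 1 replicate. Requiring the nearest 5′ end also lowered the upstream count from 23 to 13 (22%, against 22.4% of all genes), so that the members then showed no excess over all genes. With the 10000 highest peaks of each list, members with both replicates numbered 22 (37.3%, against 18.3% of all genes). Members with both within 100 bp then numbered 9 in place of 18 (15.3%, against 6.13%), and the median rank was 2701, against 4848. The median rank was 3921 with the highest-ranked summit in the window, against 10115.5 over all genes. With 1 replicate's list it was 8437 (replicate 1, against 14877) to 12843 (replicate 2, against 15126). Adding the stress-raised constitutive genes to the heat-induced class gave 15 genes with a pooled summit, and, chosen after seeing the data, 5 in place of 0 with a summit among the 3000 highest within 500 bp and 3 in place of 0 with a thresholded peak, which left 7 and 2 at the other constitutive genes. For summits among the 3000 highest, where the alternatives were chosen after seeing the data, the count of 12 was 5 within 250 bp (2.22% of all genes) and 7 (replicate 1) to 13 (replicate 2) with 1 replicate's list. None of the 7 heat-induced genes had one under the alternatives of distance, peak number, 5′ end and list. The causes were not tested. Unknown depth limits all ranks: absence from a list of 30000 peaks is not absence of binding.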
